A study of Mus musculus with 6 samples.

Results

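The genes described here are the Rab GTPases and the Tbc1d proteins of mouse lymph node CD4+ T cells, compared between infancy and adulthood. They were taken as the symbols that consist of Rab or Tbc1d, a number and at most 1 letter (a to d for Rab, a to c for Tbc1d), which gave 89 of 52997 genes, 59 Rab and 30 Tbc1d. The infant group held 3 mice aged 10 days and the adult group 3 mice aged 7 weeks. All mice were of the strain Foxp3-GFP (C57BL/6), in which a green fluorescent protein reports the regulatory T cell factor Foxp3. The lymph nodes were pooled and 1000 cells per library were passed through the sorter 2 times in succession. Each replicate was 1 mouse according to the series, and the library titles call the cells Tconv. The series describes the cells as naive, without naming the surface markers used to sort them. The comparison asks how the transcriptome of these cells differs between the ages.

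Rab proteins are small GTPases that give membranes their identity. Bound to GTP, each Rab sits on a particular compartment and recruits effectors that move, tether and fuse vesicles, and when the GTP is hydrolysed a chaperone takes the protein off the membrane. Guanine nucleotide exchange factors (GEFs) load the GTP, and GTPase-activating proteins (GAPs), most of which carry a TBC domain like the Tbc1d proteins, speed its hydrolysis. In T cells Rab proteins are known for recycling T cell receptors to the contact with an antigen-presenting cell and, in cytotoxic cells, for releasing lytic granules.

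The libraries held 4115742 to 4739304 counts in infants and 3421253 to 4887371 in adults. The T cell markers were high in all 6 libraries, with a sum over 8 genes of 7286 to 7745 CPM (counts scaled to library size with TMM factors) in infant and 6708 to 7835 CPM in adult libraries. Genes known from naive T cells include Ccr7, a receptor that guides T cells into lymph nodes, the transcription factor Lef1, Tcf7 and Il7r. Ccr7 was at 1551 ± 27.7 CPM in infant and 1682 ± 158 CPM in adult libraries (SD, n = 3 each). Lef1 was at 745 ± 7.7 CPM in infant and 957 ± 118 CPM in adult libraries, without overlap (edgeR adjusted p = 0.0754). Tcf7 lay the other way with overlap, at 980 ± 32.1 CPM in infant and 898 ± 65.65 CPM in adult libraries. Il7r was at 429 ± 85.8 CPM in infant and 466 ± 65.9 CPM in adult libraries. None of these genes was called. Markers of B cells summed to 7.50 to 15.5 CPM in infant and 10.9 to 18.5 CPM in adult libraries over 8 genes, and those of myeloid cells to 15.9 to 19.6 CPM in infant and 7.05 to 16.8 CPM in adult libraries over 8 genes. Natural killer cell markers summed to at most 2.17 CPM in infant and 9.09 CPM in adult libraries over 5 genes, with Ncr1 and Klra8 at 0 throughout, and erythroid markers to at most 8.71 CPM in infant and 4.55 CPM in adult libraries over 5 genes, with Hba-a1 at 0. Alas2 made up most of the erythroid sums. Of 6 stromal and endothelial markers, which summed to 376 to 391 CPM in infant and 324 to 395.5 CPM in adult libraries, Pecam1 made up nearly all. The regulatory T cell markers summed to 89.0 to 96.1 CPM in infant and 111 to 130 CPM in adult libraries over 5 genes, without overlap. Tnfrsf18, a receptor that activated T cells also carry, made up most of that sum, at 68.0 ± 3.35 CPM in infant and 99.7 ± 18.4 CPM in adult libraries. Foxp3, the defining factor, lay the other way without overlap, at 7.61 ± 1.39 CPM in infant and 5.60 ± 0.968 CPM in adult libraries, and Ikzf2 was at 9.15 ± 0.779 CPM in infant and 6.33 ± 3.46 CPM in adult libraries (SD, n = 3 each). None of the 5 was called by edgeR, and 1 had an unadjusted p under 0.05. CD8 T cell markers summed to 32.0 to 41.8 CPM in infant and 31.3 to 36.5 CPM in adult libraries over 2 genes. Cd8b1 made up nearly all of that sum, and Cd8a was at 1.21 ± 1.05 CPM in infant and 0.594 ± 0.607 CPM in adult libraries. Adult replicate 2 stood apart: over untested autosomal protein-coding genes it held 1.85 counts per kb of exon, against 0.269, 0.256 and 0.349 in the infant libraries and 0.186 and 0.206 in the other adult libraries. Whether these differences take part in the results on Rab and Tbc1d genes was not tested, and values without adult replicate 2 are given where that library bears on a gene. In bulk samples such as these, fewer cells that express a gene and less RNA per cell cannot be told apart.

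Of the Rab and Tbc1d genes 3 passed the test between infancy and adulthood, and most of the others differed little, as did most genes tested. Rab20, an endosomal Rab, and Tbc1d30, a TBC domain protein, were lower in infant cells, and Rab37, a Rab of secretory granules, was higher. Of the 89 genes, 66 passed the filter on low counts, 40 Rab and 26 Tbc1d. The call was made by edgeR's quasi-likelihood test at a Benjamini-Hochberg adjusted p under 0.05 over all 11681 genes tested, of which 3.64% were called, 1.52% higher and 2.11% lower in infants. The 3 calls among 66 tested members lie near that share. Fold changes were small for most of the rest: 53 of the 66 had an absolute log2 fold change under 0.5, where 79.8% of all tested genes did. The infant values lay wholly above the adult values for 9 tested members and wholly below them for 9, where 22.8% of all tested genes had groups that did not overlap in either direction. An unadjusted p under 0.05 was reached by 11 of the 66, against 17.3% of all tested genes.

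**Figure D1:**
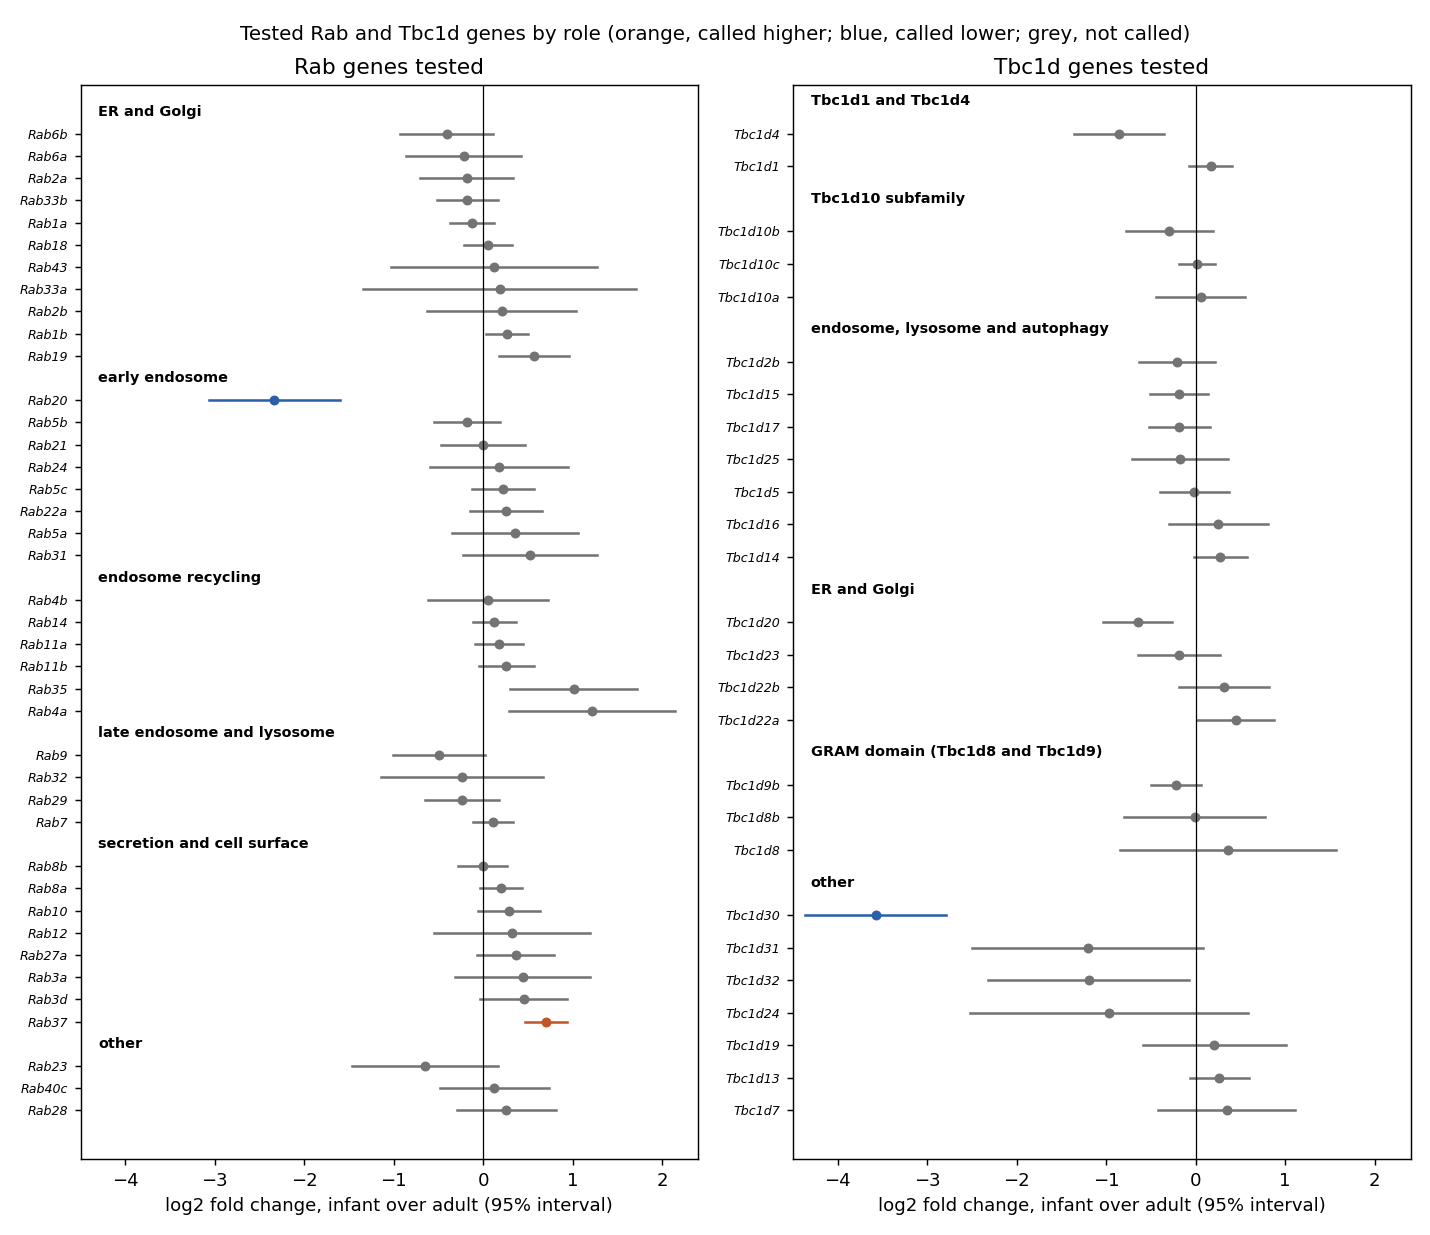
Log2 fold change, infant over adult, of the 40 Rab (left) and 26 Tbc1d (right) genes tested, grouped by role, with points for the edgeR estimate and lines for its 95% interval. Rab20 (−2.34) and Tbc1d30 (−3.57) lie far to the left of zero and Rab37 (0.70) to the right, while most other intervals include zero.

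Rab20 and Tbc1d30 were singled out by name because earlier work on these same data had listed them among the genes of steepest fall, so their p-values are not independent evidence. Rab20 (ENSMUSG00000031504.6, chromosome 8, 11453518 to 11478710, mm10, minus strand) encodes a Rab of early endosomes and phagosomes. It is known as a gene that hypoxia-inducible factors switch on. Rab20 had 4.40, 6.53 and 2.66 CPM in the infant libraries, against 23.5, 26.7 and 18.8 CPM in the adult libraries. Every infant value lay far below every adult value, and the means were 4.53 ± 1.94 CPM in infants and 23.0 ± 3.98 CPM in adults (SD, n = 3 each). The fall was 5.05-fold (log2 fold change −2.34 ± 0.34, SE, edgeR adjusted p = 0.00147). The counts behind it were 21, 27 and 11 in the infant and 97, 94 and 88 in the adult libraries. The other 7 early endosome genes had log2 fold changes from −0.18 to 0.52, and none of them was called.

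Libraries made by transposase from amplified cDNA, as these were, do not mark strand. Of the exonic bases of Rab20, 356 (25.6%) are shared with the divergent non-coding gene E230013L22Rik, which starts inside Rab20 on the other strand. E230013L22Rik had at most 0.484 CPM in the infant and 0.727 CPM in the adult libraries. At the density of scattered counts in adult replicate 2, a gene of the exonic length of Rab20 (1392 bases) would hold 2.58 counts, against the 94 counted there. Without that library Rab20 had a log2 fold change of −2.22 (edgeR adjusted p = 0.00483).

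The sequence upstream of the RefSeq start of Rab20 is shown because of the gene's known control by hypoxia-inducible factors, whose binding core is ACGTG or GCGTG. It covers the 250 bases before the RefSeq start (GRCm38.p6, chr8:11478641-11478890, minus strand, 5′ to 3′), with every ACGTG or GCGTG on either strand in capitals.
Rab20: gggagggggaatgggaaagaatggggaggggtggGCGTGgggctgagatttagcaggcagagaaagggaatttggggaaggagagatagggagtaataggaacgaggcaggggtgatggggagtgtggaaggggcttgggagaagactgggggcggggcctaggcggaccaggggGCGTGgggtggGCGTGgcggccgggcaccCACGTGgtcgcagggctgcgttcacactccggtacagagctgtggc
The window held 5 matches, of which 3 were GCGTG and the other 2 overlapped in the palindrome CACGTG, which reads ACGTG on both strands. In the GENCODE annotation, from which the gene's span above was taken, Rab20 starts farther upstream, so that 70 bases of the window and 3 of the 5 matches (1 GCGTG and the palindrome) lie inside that span. At least 1 match was found in 38.6% of the 32851 windows of this length in the RefSeq table and in 50.0% of the 90 windows of 71 Rab and Tbc1d genes, and 5 or more in 1.01% of all windows. ACGTG alone was in 16.6% of all windows and in 21.1% of those of Rab and Tbc1d genes. A match describes the letters and does not show that a factor binds there.

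Tbc1d30 (ENSMUSG00000052302.6, chromosome 10, 121263820 to 121351278, minus strand) encodes a TBC protein that in human cells acts on RAB8A and limits the formation of primary cilia. Tbc1d30 had 2.93, 1.21 and 1.69 CPM in the infant libraries, against 19.6, 24.4 and 27.3 CPM in the adult libraries. The infant values sat close to the limit of counting, at 14, 5 and 7 counts, while the adult libraries held 81, 86 and 128. The means were 1.94 ± 0.89 CPM in infants and 23.8 ± 3.89 CPM in adults (SD, n = 3 each), an 11.9-fold fall (log2 fold change −3.57 ± 0.37, edgeR adjusted p = 7.34e-05). It had the steepest fall of all tested members, and 0.308% of all tested genes were called with a fall of at least 4-fold.

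Tbc1d30 is long, with 6733 exonic bases, so that at the density of scattered counts adult replicate 2 would hold 12.5 counts of it, against 86 counted. Without adult replicate 2 its log2 fold change was −3.56 (edgeR adjusted p = 2.94e-04). An antisense gene, Gm48435, which is not among the symbols of the deposited counts, shares 262 of the exonic bases of Tbc1d30 (3.89%). Per kb of exon Tbc1d30 ranked 22nd of the 30 Tbc1d genes, at 0.289 ± 0.132 CPM per kb in infant and 3.54 ± 0.578 CPM per kb in adult libraries.

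Rab37 (ENSMUSG00000020732.13, chromosome 11, 115091431 to 115162236, plus strand), known from the secretory granules of mast cells and from cytokine release by macrophages, was the 1 member called higher. Rab37 had 214, 199.5 and 221 CPM in the infant libraries, against 134, 134 and 122 CPM in the adult libraries. The groups were tight and well apart, with means of 212 ± 10.9 CPM in infants and 130.1 ± 6.87 CPM in adults (SD, n = 3 each). The rise was 1.63-fold (log2 fold change 0.70 ± 0.11, edgeR adjusted p = 0.00234). Per kb of exon Rab37 ranked 6th among the Rab genes. Of the 25-base stretches in its transcripts 1.23% also occur in a transcript of another gene.

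**Figure D2:**
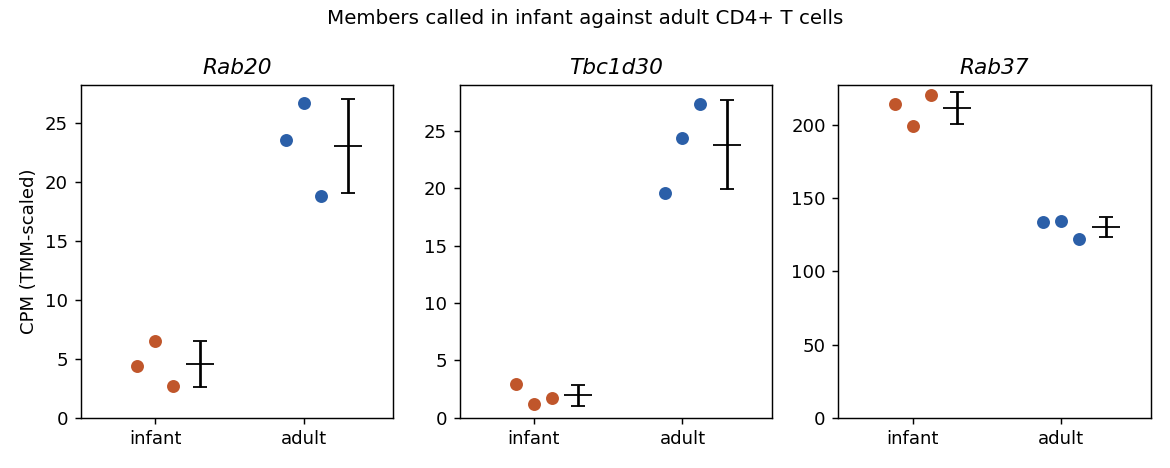
CPM of Rab20, Tbc1d30 and Rab37 in the 3 infant (left, orange) and 3 adult (right, blue) libraries, with 1 point per library and a black mark for the mean ± SD. Infant Rab20 lies at 2.66 to 6.53 CPM below adult values of 18.8 to 26.7, infant Tbc1d30 at 1.21 to 2.93 below 19.6 to 27.3, and infant Rab37 at 199.5 to 221 above 122 to 134.

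All 3 calls held without any single library. Leaving out each library in turn gave log2 fold changes of −2.68 to −2.07 for Rab20 (edgeR adjusted p at most 0.0124), of −4.00 to −3.33 for Tbc1d30 (adjusted p at most 0.00171) and of 0.66 to 0.74 for Rab37 (adjusted p at most 0.0244).

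**Figure D3:**
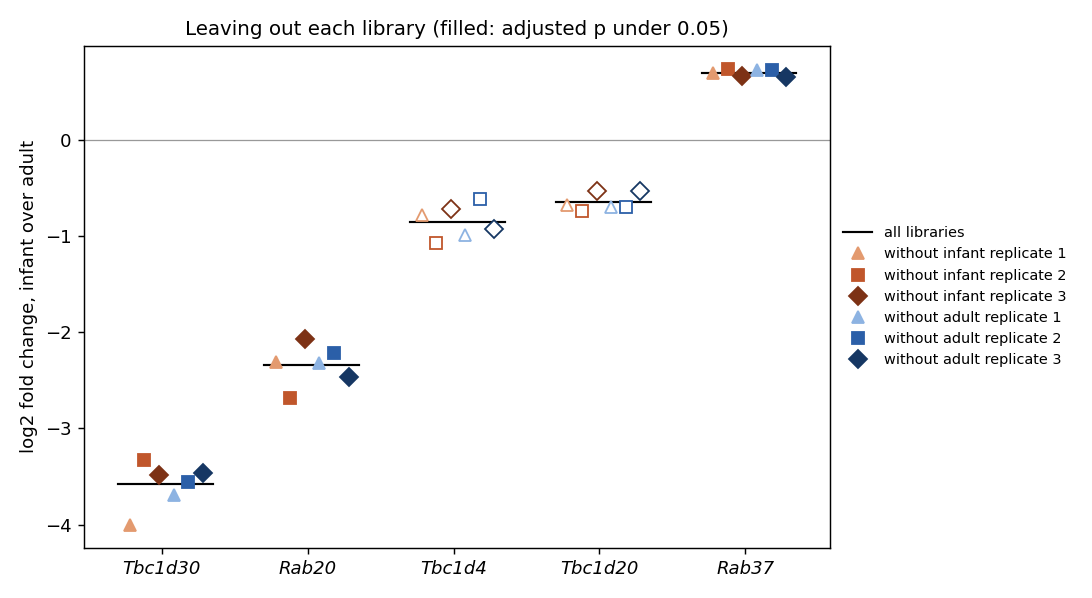
Log2 fold change, infant over adult, of 5 members with all libraries (black line) and without each library in turn (symbols, filled where the edgeR adjusted p was under 0.05). Tbc1d30, Rab20 and Rab37 stay filled throughout, while Tbc1d4 and Tbc1d20 are open throughout, with values of −1.07 to −0.61 and −0.74 to −0.53.

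Among the Rabs of the endoplasmic reticulum and Golgi, 0 of 11 tested were called (median log2 fold change 0.05, against −0.0017 over all tested genes). Rab1b and Rab1a, which carry vesicles from the endoplasmic reticulum to the Golgi, are close paralogs. Rab1b had 175, 173 and 193 CPM in infant and 161, 143 and 146 CPM in adult libraries (log2 fold change 0.26 ± 0.11, edgeR adjusted p = 0.237). Rab1a had 123, 122 and 127 CPM in infant and 131, 144 and 131 CPM in adult libraries (−0.13 ± 0.11, adjusted p = 0.632). The groups did not overlap for either gene, in opposite directions, and neither was called. Rab1b made up 70.9% ± 0.869 of the per-kb sum of this pair in infant and 65.0% ± 2.43 in adult libraries (SD, n = 3 each), a difference that was not tested.

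The 6 recycling Rabs tested had log2 fold changes of 0.06 to 1.21, and 0 were called. The lowest, of Rab4b, took values down to −0.12 when 1 library was left out. They return receptors from endosomes to the cell surface. Rab4a, of fast recycling, had 6.70, 13.1 and 14.7 CPM in infant and 2.67, 5.68 and 6.41 CPM in adult libraries (log2 fold change 1.21 ± 0.43, edgeR adjusted p = 0.157). Rab35, which in human T cells takes part in receptor recycling to the immunological synapse, had 12.4, 19.3 and 13.8 CPM in infant and 8.24, 9.09 and 5.34 CPM in adult libraries (1.01 ± 0.33, adjusted p = 0.117). Infant values lay above adult values for both, at few counts, and the 95% intervals of the log2 fold change ran from 0.28 to 2.14 and from 0.30 to 1.72. The abundant Rab11a and Rab11b, of the recycling endosome, had log2 fold changes of 0.17 ± 0.13 and 0.25 ± 0.14 (adjusted p = 0.537 and 0.405).

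Of the late endosome and lysosome Rabs 0 of 4 tested were called (median −0.24). Rab7, the Rab of late endosomes, had 202, 203 and 209 CPM in infant and 192, 184 and 194 CPM in adult libraries (log2 fold change 0.11 ± 0.10, edgeR adjusted p = 0.647), with an interval of −0.11 to 0.33. Of the 25-base stretches of Rab7, 21.0% also occur in another gene, mainly the pseudogene Rab7-ps1, so its level is uncertain. Rab29, a Rab of the Golgi and lysosome that in human T cells helps to recycle receptors, was at 37.7 ± 8.62 CPM in infant and 44.5 ± 3.56 CPM in adult libraries (−0.24 ± 0.19, adjusted p = 0.589).

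Rabs of secretion and the cell surface had Rab37 as the sole call of 8 tested, 7 of them with positive log2 fold changes (median 0.34). Rab8a carries cargo from the Golgi to the plasma membrane and to primary cilia and was the most abundant Rab per kb of exon. It had 409, 439 and 457 CPM in infant and 420, 340 and 377 CPM in adult libraries (log2 fold change 0.20 ± 0.11, edgeR adjusted p = 0.383), so that the groups overlapped. Rab27a, which docks lytic granules in cytotoxic T cells and was chosen after its values were seen, was at 54.6 ± 13.4 CPM in infant and 42.5 ± 7.06 CPM in adult libraries (0.36 ± 0.20, adjusted p = 0.403).

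Of the early endosome Rabs other than Rab20, Rab5c was at 64.8 ± 6.03 CPM in infant and 55.7 ± 9.68 CPM in adult libraries (log2 fold change 0.22 ± 0.16, edgeR adjusted p = 0.554). It is 1 of 3 Rab5 paralogs that govern fusion of early endosomes and made up 73.2% ± 2.47 of their per-kb sum in infant and 68.7% ± 5.67 in adult libraries. Rab28 (0.25 ± 0.26) and Rab40c (0.12 ± 0.28), which were in no compartment group, were not called either (adjusted p = 0.677 and 0.881). Over all Rab genes tested the median log2 fold change was 0.17, with 27 of 40 positive, where 5811 of all 11681 genes tested were. The summed CPM of the 59 Rab genes was 2398, 2485 and 2556 in infant and 2275, 2261 and 2188 in adult libraries, without overlap. Much of that difference came from Rab37 (means of 212 in infant against 130.1 CPM in adult libraries) and Rab8a (435 against 379 CPM). A shift of the whole family was not tested.

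Per kb of exon a single TBC gene stood far above the rest in both groups. Tbc1d10c encodes carabin, which is known to restrain calcineurin and Ras signalling in T cells and, in human T cells, acts on RAB35. It was at 244 ± 12.8 CPM per kb in infant and 242 ± 12.5 CPM per kb in adult libraries (SD, n = 3 each). The next were Tbc1d15, at 28.8 ± 2.38 and 32.6 ± 6.89 CPM per kb, and Tbc1d10a, at 28.7 ± 10.2 and 27.7 ± 7.10 CPM per kb, and these neighbours in the order lay within each other's spread. Among the Rabs, Rab8a led with 93.0 ± 5.22 CPM per kb in infant and 81.0 ± 8.48 in adult libraries. Rab1b (79.4 ± 4.89 and 66.1 ± 4.32) and Rab7 (78.5 ± 1.56 and 72.7 ± 2.16) followed. The order of their means differed between the ages, but the infant means lay within each other's spread. In infant replicates 1 and 2 Rab7 was the higher, as in adults, at 77.25 and 77.93 CPM per kb against 76.86 and 76.32. Rab11a (40.5 ± 4.98 and 35.9 ± 0.253) came next.

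**Figure D4:**
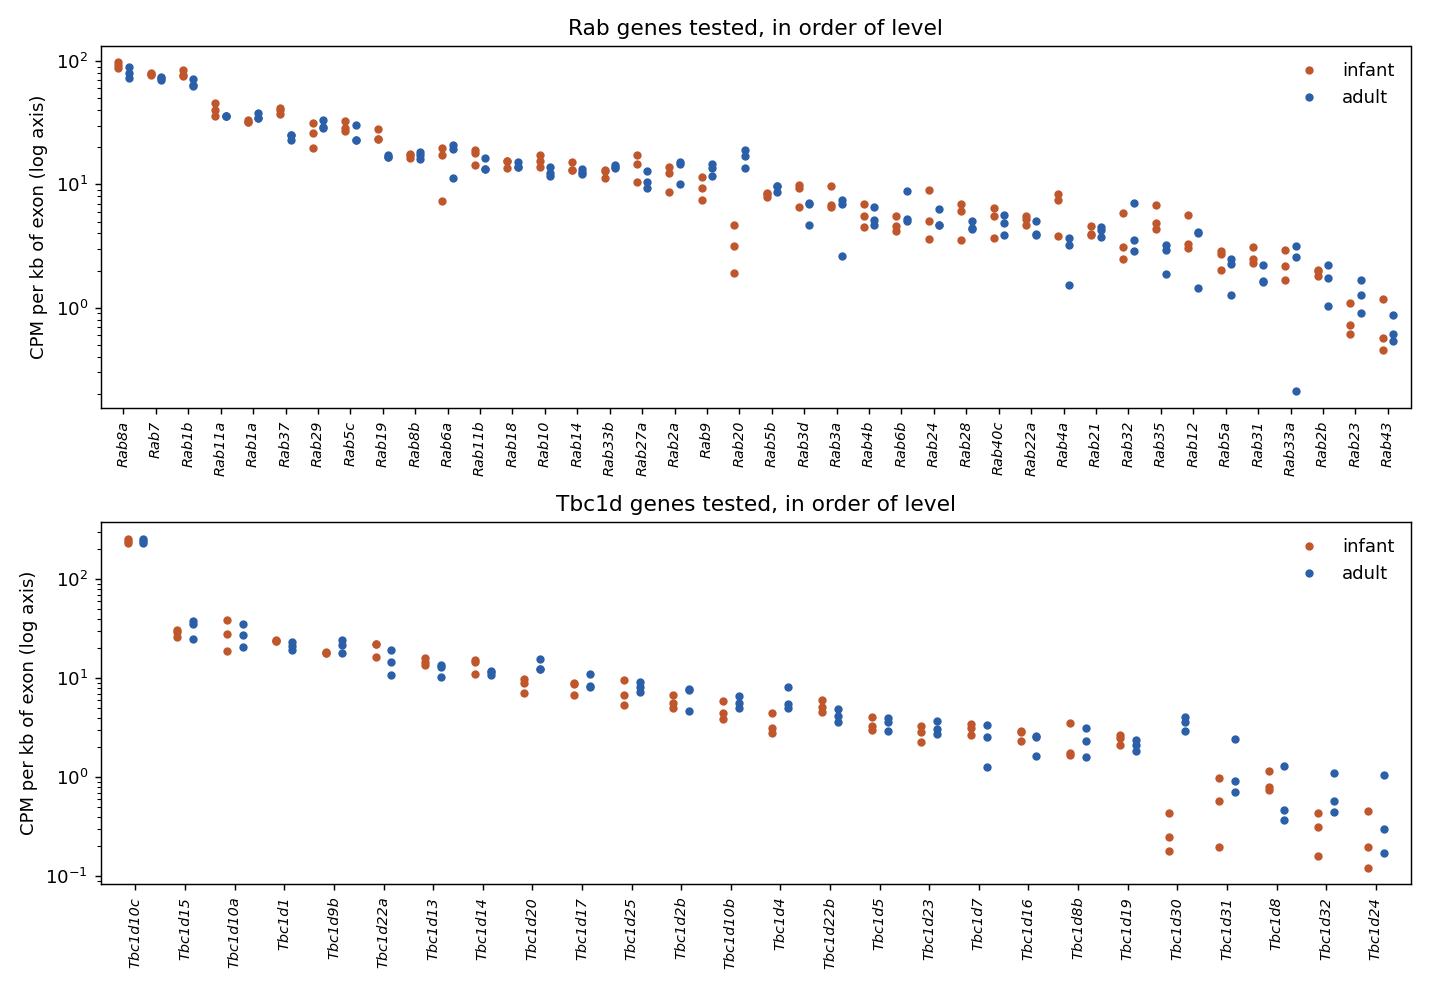
CPM per kb of exon (log axis) of the tested Rab (top) and Tbc1d (bottom) genes in order of their mean level, with 1 point per infant (orange, left of each tick) and adult (blue, right) library. Tbc1d10c lies near 244 CPM per kb in infants and 242 in adults, and the ages separate widely at Rab20 and Tbc1d30.

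Tbc1d10c had 933, 841 and 881 CPM in the infant libraries, against 836, 872 and 926 CPM in the adult libraries. The groups overlapped entirely (log2 fold change 0.011 ± 0.094, edgeR adjusted p = 0.970), with a 95% interval of −0.19 to 0.21. Its level is uncertain, since 33.0% of its 25-base stretches also occur in another gene, mainly AC109138.8. That gene is annotated over 35.5% of the exonic bases of Tbc1d10c, on the same strand. Tbc1d10a, which acts on RAB27A and RAB35 in human cells, varied widely within both groups, with 51.5, 77.2 and 107 CPM in infant and 95.8, 73.9 and 57.0 CPM in adult libraries.

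Tbc1d1 and Tbc1d4 are paralogs that hold glucose transporter vesicles inside fat and muscle cells until insulin or exercise acts on them. Tbc1d4 had 23.9, 34.1 and 21.3 CPM in the infant libraries, against 38.1, 62.8 and 42.5 CPM in the adult libraries. Infant values lay below adult values without overlap, by a log2 fold change of −0.85 ± 0.23 (95% interval −1.35 to −0.35) that did not pass (edgeR adjusted p = 0.0610). It passed in DESeq2 (adjusted p = 0.0235), without the filter (0.00910) and with the replicate number as a block (0.0402), with alternatives and left-out libraries spanning adjusted p of 0.00910 to 0.219. Tbc1d1 had 178, 175 and 179 CPM in infant and 156, 144 and 173 CPM in adult libraries (0.17 ± 0.11, adjusted p = 0.497).

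Tbc1d20, which acts on RAB1 in human cells, had 37.7, 40.9 and 29.7 CPM in the infant libraries, against 51.9, 52.3 and 64.95 CPM in the adult libraries. Its groups did not overlap either (log2 fold change −0.64 ± 0.18, 95% interval −1.03 to −0.26), and it did not pass in edgeR (adjusted p = 0.0646). DESeq2 called it (adjusted p = 0.0371), and over all alternatives and left-out libraries the adjusted p ran from 0.0371 to 0.226. Tbc1d22a, a Golgi TBC protein, was at 69.4 ± 11.7 CPM in infant and 50.7 ± 14.3 CPM in adult libraries (0.45 ± 0.20, adjusted p = 0.271).

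The endosomal, lysosomal and autophagy TBC genes had 0 of 7 tested called (median −0.18). Tbc1d15, known to act on Rab7 and at mitochondria, was at 123 ± 10.1 CPM in infant and 139 ± 29.4 CPM in adult libraries (log2 fold change −0.18 ± 0.15, edgeR adjusted p = 0.597). Tbc1d14, which binds Rab11 and slows the start of autophagy, was at 134 ± 23.1 and 111 ± 5.08 CPM (0.28 ± 0.14, adjusted p = 0.339). Of the GRAM domain genes Tbc1d9b, a GAP of Rab11, was at 117 ± 1.68 CPM in infant and 137 ± 20.1 CPM in adult libraries (−0.22 ± 0.13, adjusted p = 0.434) and Tbc1d8b at 12.2 ± 5.57 and 12.3 ± 4.08 CPM (−0.0095 ± 0.37).

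Among TBC genes of no such group, Tbc1d13, a GAP of Rab35, had a log2 fold change of 0.26 ± 0.15 and Tbc1d7, the smallest subunit of the tuberous sclerosis complex, of 0.35 ± 0.36 (edgeR adjusted p = 0.434 and 0.682). Tbc1d32, a gene of primary cilia, had 3.35, 1.69 and 4.59 CPM in infant and 6.06, 11.6 and 4.70 CPM in adult libraries (−1.20 ± 0.52, adjusted p = 0.255). The adult values were higher without overlap, yet adult replicate 2 held the highest of them, with 41 counts where its scattered counts alone would give 19.6, and without that library the log2 fold change was −0.74. Over all Tbc1d genes tested the median was −0.095, and it was 0.024 without adult replicate 2. The summed CPM of the 30 Tbc1d genes was 2051, 2055 and 2057 in infant and 2041, 2049 and 2214 in adult libraries, with overlap.

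Where a TBC protein has a known Rab target or, as Tbc1d14, a Rab that it binds, mostly from human cells, the pair can be set side by side. The pairs given in full are those around Tbc1d30, Tbc1d20, Tbc1d4 and Rab35, which include the larger changes. Tbc1d30 had a log2 fold change of −3.57 ± 0.37 and its target Rab8a of 0.20 ± 0.11, with an interval of −0.03 to 0.43 for Rab8a. Per kb of exon Tbc1d30 was far rarer than Rab8a at both ages, at 0.289 against 93.0 CPM per kb in infant and 3.54 against 81.0 CPM per kb in adult libraries. Tbc1d20 had −0.64 ± 0.18, and its targets Rab1a and Rab1b had −0.13 ± 0.11 and 0.26 ± 0.11. Tbc1d4 had −0.85 ± 0.23, and its targets Rab8a, Rab10 and Rab14 had 0.20 ± 0.11, 0.28 ± 0.16 and 0.12 ± 0.11. Tbc1d1, which was paired with the same targets, had 0.17 ± 0.11, and Tbc1d17, also paired with Rab8a, had −0.18 ± 0.16. The tested TBC genes paired with Rab4a, Rab7, Rab11a, Rab27a and Rab33b lay between −0.29 (Tbc1d10b) and 0.31 (Tbc1d22b). Rab35 had 1.01 ± 0.33, and the GAPs that act on it, Tbc1d10a, Tbc1d10b, Tbc1d10c and Tbc1d13, had 0.05 ± 0.23, −0.29 ± 0.23, 0.011 ± 0.094 and 0.26 ± 0.15. Of the genes in these sentences Tbc1d30 alone was called, and no difference within a pair was tested.

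The 23 members that did not pass the filter comprised 19 Rab and 4 Tbc1d genes. Rab42 had no count in any library, which allows up to 0.628 to 0.726 CPM in the infant and 0.641 to 0.852 CPM in the adult libraries (3 counts, for counting error only). For 16 of the 23 the highest count was in adult replicate 2. Rab26, a Rab of secretory granules, had 1.67, 1.69 and 2.17 CPM in infant and 2.18, 4.55 and 1.07 CPM in adult libraries. Rab36, Tbc1d2 and Tbc1d12 reached at most 2.17, 2.09 and 1.47 CPM in infant and 3.13, 1.14 and 1.70 CPM in adult libraries. Tbc1d9, chosen after its values were seen, had no count in the infant libraries and, among adults, 22 in replicate 2 alone, where the density of scattered counts would give 10.9.

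Other genes that control Rabs were counted in the same way. In 8 lists of GAPs, GEFs, prenylation factors, effectors and tethering complexes, 141 genes were in the table and 121 were tested, of which 1 rose and 2 fell, or 2.48% against 3.64% of all tested genes. The median log2 fold change was −0.02. The counts of genes called were 0 of 9 for other TBC and Rab3 GAPs, 2 of 32 for GEFs, 0 of 14 for the TRAPP complex, 1 of 7 for prenylation and escort factors and 0 of 37 for effectors. They were 0 of 9 for the HOPS and CORVET tethers, 0 of 9 for the exocyst and 0 of 4 for retromer. The shares for GEFs (6.25%) and for prenylation and escort factors (14.3%) were above that over all tested genes but rest on 2 genes and 1 gene. Medians of these 8 lists lay between −0.09 and 0.09.

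Als2cl, a relative of the Rab5 exchange factor alsin that binds RAB5 in human cells, fell. It had 234, 255 and 235 CPM in the infant libraries, against 608, 477 and 552 CPM in the adult libraries, wide apart (log2 fold change −1.18 ± 0.11, edgeR adjusted p = 3.72e-05). Als2cl (chromosome 9, 110879870 to 110900530) shares 244 exonic bases (4.15%) with Tmie, a gene of hair cell mechanotransduction on the other strand, and 669 (11.4%) with the unclassified transcript Gm43127. Tmie had 15.3, 13.5 and 14.0 CPM in infant and 89.2, 79.0 and 63.9 CPM in adult libraries (−2.43 ± 0.19, adjusted p = 5.05e-06). Gm43127 had 1.68, 1.21 and 1.21 CPM in infant and 5.82, 6.54 and 8.33 CPM in adult libraries (−2.31 ± 0.52, adjusted p = 0.0233, lost without any single library but adult replicate 2, at most 0.139). All 3 fell, and since this kind of library does not mark strand, reads from the shared stretches cannot be told apart.

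Rabac1, the prenylated Rab acceptor of the Golgi, fell as well. It had 223, 195 and 217 CPM in the infant libraries, against 364, 386 and 348 CPM in the adult libraries. The groups were far apart (log2 fold change −0.79 ± 0.11, edgeR adjusted p = 7.73e-04). None of its 25-base stretches occurred in another gene. The other 6 tested genes of prenylation and escort, among them both GDI chaperones, were not called.

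Dennd1c, a DENN domain exchange factor for RAB35 in human cells, rose. It had 325, 341 and 335 CPM in the infant libraries, against 255, 201 and 266 CPM in the adult libraries (log2 fold change 0.47 ± 0.12, edgeR adjusted p = 0.0427). The infant values were close to each other and above all adult values. The call was lost without any 1 of the 6 libraries (adjusted p = 0.0582 to 0.210). Dennd1b, a second exchange factor of Rab35 chosen after its values were seen, had 79.8, 90.2 and 72.9 CPM in infant and 62.8, 49.4 and 61.3 CPM in adult libraries (0.48 ± 0.15, adjusted p = 0.0962).

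**Figure D5:**
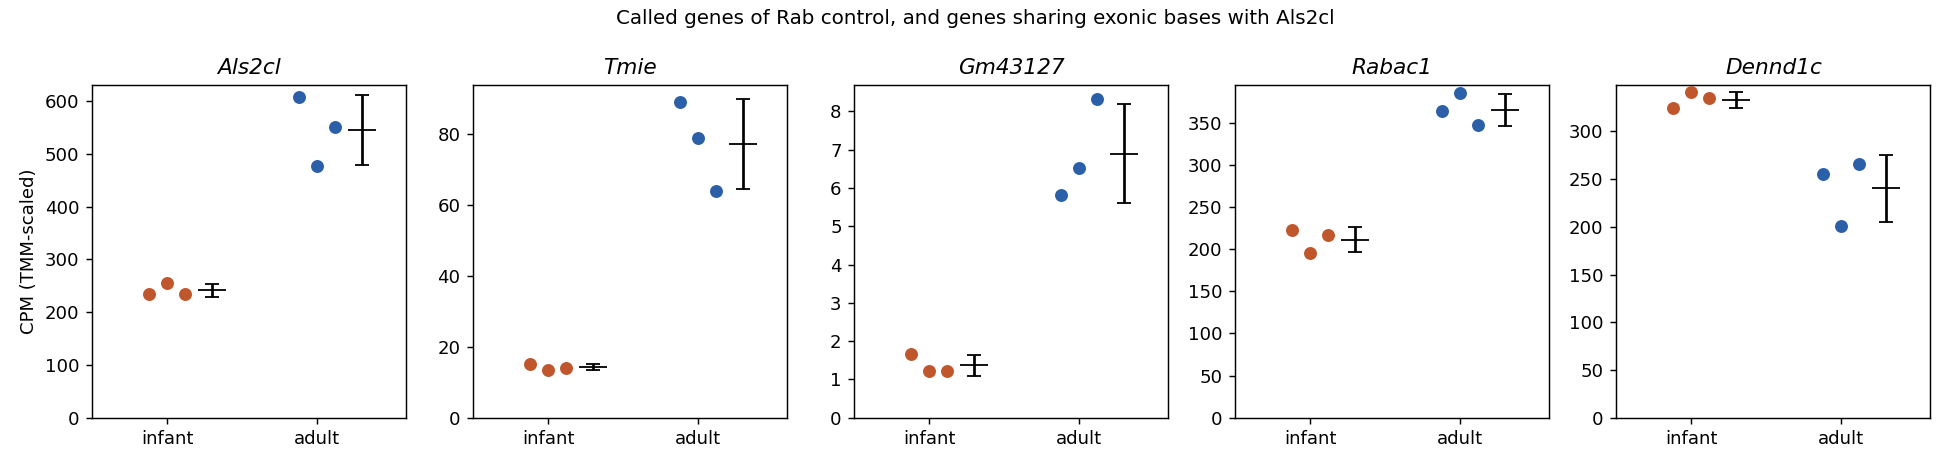
CPM of Als2cl, of Tmie and Gm43127, which share exonic bases with it, and of Rabac1 and Dennd1c in 3 infant (left, orange) and 3 adult (right, blue) libraries, with 1 point per library and a black mark for the mean ± SD. Infant values lie below adult values in the first 4 panels and above them for Dennd1c (325 to 341 against 201 to 266 CPM).

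Reads of 25 bases can match several genes, and no source used here says how such reads were counted. For 16 of the 89 members over 10% of the 25-base stretches in their transcripts also occur in another gene (median over members 1.25%). The share was highest for Rab43 (74.8%, mainly Gm45140), Rab4b (64.7%, mainly Gm21983), Rab2b (60.6%, mainly Gm43766) and Rab24 (56.1%, mainly Prelid1). The levels of these 4 genes are uncertain. Their partners are annotated on the same genomic bases, covering 75.4%, 65.0%, 59.3% and 62.4% of their exonic bases in that order. The share of 25-base stretches was 24.3% for Rab20, 3.74% for Tbc1d30 and 1.23% for Rab37.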

How the data were processed

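RNA of sorted CD4+ T cells from 3 infant and 3 adult mice was measured by polyadenylated RNA sequencing in paired reads of 25 bases, per the labels' protocols. These name an oligo(dT) primer, PCR of the cDNA and Nextera XT transposase libraries, a kind that does not mark strand, and describe no molecular identifiers. The authors deposited raw counts per gene symbol. STAR 2.5.4, featureCounts and mm10 are named by the submitters' processing notes. For the annotation release and multiply matching reads, the sources used here state nothing.

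The test was edgeR 4.0.16 (R 4.3.3, quasi-likelihood, TMM factors, no covariate) on the genes that filterByExpr kept at a minimum count of 10, 11681 in all, with Benjamini-Hochberg adjustment and a threshold of 0.05. Log2 fold changes set infant over adult. SE was obtained as the size of the log2 fold change over the root of F, and 95% intervals from the fit's degrees of freedom. The fit was first tested on simulated data. As alternatives served DESeq2 1.42.0, limma-voom (limma 3.58.1), other scalings (DESeq2 size factors, library totals), other filters (none, or 10 or more counts in at least 3 libraries and a mean of 20 or more), a block for the replicate number, and the omission of single libraries. Replicates varied beyond counting noise, at a chi-square of 5.07 to 13.0 per degree of freedom.

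The members and lists were chosen with earlier results of these data known. Named were Rab20, Tbc1d30 and every called member, the 2 tested members of highest level per kb in each role list, the 3 uncalled members of largest change without overlap (Rab4a, Tbc1d32 and Rab35), up to 3 called genes per related list, and members below the filter with 1 CPM in 2 libraries. Exon lengths, positions and shared 25-base stretches came from GENCODE M21 of the same build, which matched all 89 members and 93.1% of symbols. The upstream sequence came from RefSeq (GRCm38.p6). No sequencing batch is named in the labels. The result for 1 marker gene is not reported here.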

Additional observations from a re-analysis of the deposited data

How the results depend on the processing

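Rab20 and Tbc1d30 kept their direction and call under all 13 alternatives tried (log2 fold changes −2.68 to −2.07 and −4.00 to −3.33), as did Rab37, Als2cl and Rabac1. The count of members called lower was 2, and 4 with DESeq2, which added Tbc1d4 and Tbc1d20, and 3 without the filter or with the replicate block, which added Tbc1d4; that of members called higher was 1 throughout. The 3 calls among related genes became 5 with the stricter filter and 6 with DESeq2, and 2 to 3 with 1 library left out. The count over all genes was 425, and 139 to 488 with 1 library left out. It also rose to 622 with DESeq2, to 550 without the filter and to 482 with the stricter filter. Members and related genes added in these 3 settings thus came with more calls over all genes. With the replicate block Tbc1d4 was added although fewer genes were called in all (326). Without the filter the medians were 0.093 for Rab and −0.056 for Tbc1d genes, with a median over all genes of −0.84; leaving out 1 library gave 0.11 to 0.19 and −0.17 to 0.024. Among uncalled genes the sign turned for Rab40c (range −0.049 to 0.32 with 1 library left out, −0.017 without adult replicate 3), Tbc1d10a (−0.24 to 0.29, and −0.12 without adult replicate 3), Tbc1d10c (−0.022 to 0.050, and −0.020 without adult replicate 1) and Tbc1d8b (−0.45 to 0.25, 0.17 and 0.18 without infant replicates 1 and 2, and 0.044 without the filter). Dennd1c lost its call without the filter and under the block (edgeR adjusted p = 0.0800 and 0.0590). The cause of these changes was not tested. Same-numbered libraries did not deviate together (correlations −0.0919 to −0.0108), which gave no sign that the replicate numbers pair the mice. With 3 libraries per group a weak pairing could go unseen. With the replicate block 326 genes, 1 higher and 3 lower members and 3 related genes were called, Rab20 had −2.38 and Tbc1d30 −3.58. Members near the floor of 3 counts, Tbc1d30 in infants among them, have the least certain size of change.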
